A study of Mus musculus with 6 samples.

Results

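A set of 10 genes of the plasma cell switch and of antibody secretion were followed in the Eµ-SOX11CCND1 mouse model of mantle cell lymphoma. They are Prdm1, Xbp1, Irf4, Sdc1, Jchain, Mzb1, Ell2, Creld2, Derl3 and Hspa5. The rule that picks them is a list of names and uses no measured value, though the list was drawn up with earlier results of these data known. SOX11 has been linked to a block of plasma cell differentiation in this lymphoma. All 10 were found by Ensembl gene ID among the 56884 genes of the deposited count table, and all 10 passed the filter on low counts that left 15462 genes for testing.

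The table holds RNA sequencing counts of 6 libraries in 2 groups of 3. The first group is whole spleen, not B cell selected, of mice at passage 1 (P1) of the adoptive transfer of Eµ-SOX11CCND1 cells, labelled as replicates 3, 4 and 5. The Eµ element is the immunoglobulin heavy chain enhancer, which drives transgenes in the B lineage, here SOX11 and CCND1. The second group is splenic B cells, obtained by selection from wild-type (WT) mice that the table's columns name BL6. No label links a WT column to one mouse, and the columns are named WT A, B and C here. Age, the strain of the recipients, the selection method and whether the P1 spleens received cells of 1 donor are not given in the labels, and p-values therefore reflect only the scatter among the 6 samples. Selection, genotype and tumour differ together between the groups and cannot be told apart.

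When a B cell becomes a plasma cell, IRF4 and Blimp-1 (encoded by Prdm1) switch off the B cell programme held by PAX5, BCL6 and BACH2, and Blimp-1 and XBP1 then enlarge the endoplasmic reticulum (ER) and the machinery for folding and exporting antibody. XBP1 and ATF6, the transcription factors of the unfolded protein response, bind a promoter element called the ER stress response element (ERSE). BiP (Hspa5), CRELD2 and Derlin-3 (Derl3) are known targets of this response.

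Library totals were 7510327 to 10363396 counts in P1 spleens and 12196413 to 14266132 in WT B cells. Sox11 had 956, 4066 and 5584 counts in P1 replicates 3, 4 and 5, against at most 1 in any WT library. The 15 pan-B cell markers summed to 1060 to 2990 CPM (counts scaled to a common library size) in P1 spleens and 9630 to 10200 CPM in WT B cells, and each of the 15 was lower in every P1 library than in any WT library (14 passed the test described below). P1 replicate 4 stood apart, with 17.4% of its counts from the mitochondrial genome, 9.96% from Hbb-bs and Hba-a1 together and a TMM scaling factor of 0.578. The mitochondrial share was 3.4% and 0.0854% in P1 replicates 3 and 5 and 0.569 to 1.13% in WT libraries. The markers of other cells summed to 6140 to 194000 CPM in P1 against 52.2 to 77.3 CPM in WT for 8 erythroid genes, and to 1020 to 7540 CPM against 4.05 to 10.7 CPM for 11 neutrophil genes. For 11 T cell genes the sums were 253 to 626 CPM in P1 and 44.8 to 57.6 CPM in WT, and for 10 macrophage genes 716 to 2620 CPM in P1 and 236 to 636 CPM in WT. For 5 NK cell genes they were 24.3 to 146 CPM in P1 and 9.25 to 19.4 CPM in WT, with Klrb1c, Ncr1 and Gzma at 0 in at least 1 P1 library, for 5 plasmacytoid dendritic cell genes 55.8 to 80.8 CPM in P1 and 32.9 to 37.4 CPM in WT, and for 6 stromal and endothelial genes 89.5 to 204 CPM in P1 and 261 to 313 CPM in WT, a sum that Pecam1 dominates. Higher calls were made for 8 of 8 erythroid, 11 of 11 neutrophil, 10 of 11 T cell and 5 of 6 stromal and endothelial genes. They were made for 2 of 10 macrophage, 2 of 5 NK cell and 0 of 4 tested plasmacytoid dendritic cell genes. Among all tested genes 16.9% were called higher and 11% lower, so 2 of 10 macrophage genes is near that share. In 24.9% of all tested genes every P1 library lay below every WT library. What these cells contribute to the levels of the 10 genes was not tested, and in bulk RNA fewer cells of a type and less RNA per cell cannot be told apart.

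Promoter sequence is shown for the 3 genes that hold an ERSE, because only Creld2 among them passed the test on the counts. The element was searched on both strands as CCAAT and CCACG separated by 9 bases of any kind, from 250 bases before to 50 after the RefSeq start (build GRCm38.p6), and 3 of the 9 genes with a promoter entry held a match, against 39 of 32851 promoters (0.119%) in the whole table. Neither ERSE-II (ATTGG and CCACG separated by 1 base, in 0.0365% of promoters) nor the UPRE core (TGACGTGG, in 0.676%) was found in the 9, so no match overlapped another motif. Capitals mark the match, which begins at position -65 in Hspa5 (chr2:34771840-34772139, plus strand), -126 in Creld2 (chr15:88819396-88819695, plus strand) and -156 in Derl3 (chr10:75893148-75893447, plus strand) and reads on the opposite strand in the last 2. A match is a description of the letters in this window.
Hspa5: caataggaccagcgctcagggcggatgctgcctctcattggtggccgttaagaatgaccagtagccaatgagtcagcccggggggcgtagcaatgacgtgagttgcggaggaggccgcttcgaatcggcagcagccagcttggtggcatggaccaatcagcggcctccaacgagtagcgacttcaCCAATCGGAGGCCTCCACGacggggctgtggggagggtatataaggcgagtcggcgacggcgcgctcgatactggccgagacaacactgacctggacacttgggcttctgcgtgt
Creld2: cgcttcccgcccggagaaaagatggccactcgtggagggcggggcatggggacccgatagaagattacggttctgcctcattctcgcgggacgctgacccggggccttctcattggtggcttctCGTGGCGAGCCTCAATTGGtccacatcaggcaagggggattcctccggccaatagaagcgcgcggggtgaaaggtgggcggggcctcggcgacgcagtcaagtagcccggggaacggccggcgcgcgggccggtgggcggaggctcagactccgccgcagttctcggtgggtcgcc
Derl3: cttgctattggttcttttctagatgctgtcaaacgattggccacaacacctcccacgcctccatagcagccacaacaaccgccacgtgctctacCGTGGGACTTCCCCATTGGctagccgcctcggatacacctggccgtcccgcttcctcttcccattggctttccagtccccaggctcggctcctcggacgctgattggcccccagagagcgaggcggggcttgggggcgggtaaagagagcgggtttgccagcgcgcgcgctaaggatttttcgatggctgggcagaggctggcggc

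Of the 10 genes, Prdm1 and Creld2 rose and Irf4 fell in P1 spleen, and the other 7 did not pass the test (edgeR quasi-likelihood test, Benjamini-Hochberg adjusted p under 0.05 over all tested genes). Calls were made for 27.9% of all tested genes, 16.9% higher and 11% lower, so 3 of 10 is close to the background and is no result about the group. Their median log2 fold change was 0.31, and that of all tested genes was 0.02. For 5 of the 10 the ranges of P1 and WT libraries were separate, 3 with P1 above WT and 2 with P1 below, against 47.8% of all tested genes (22.9% above and 24.9% below).

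**Figure D1:**
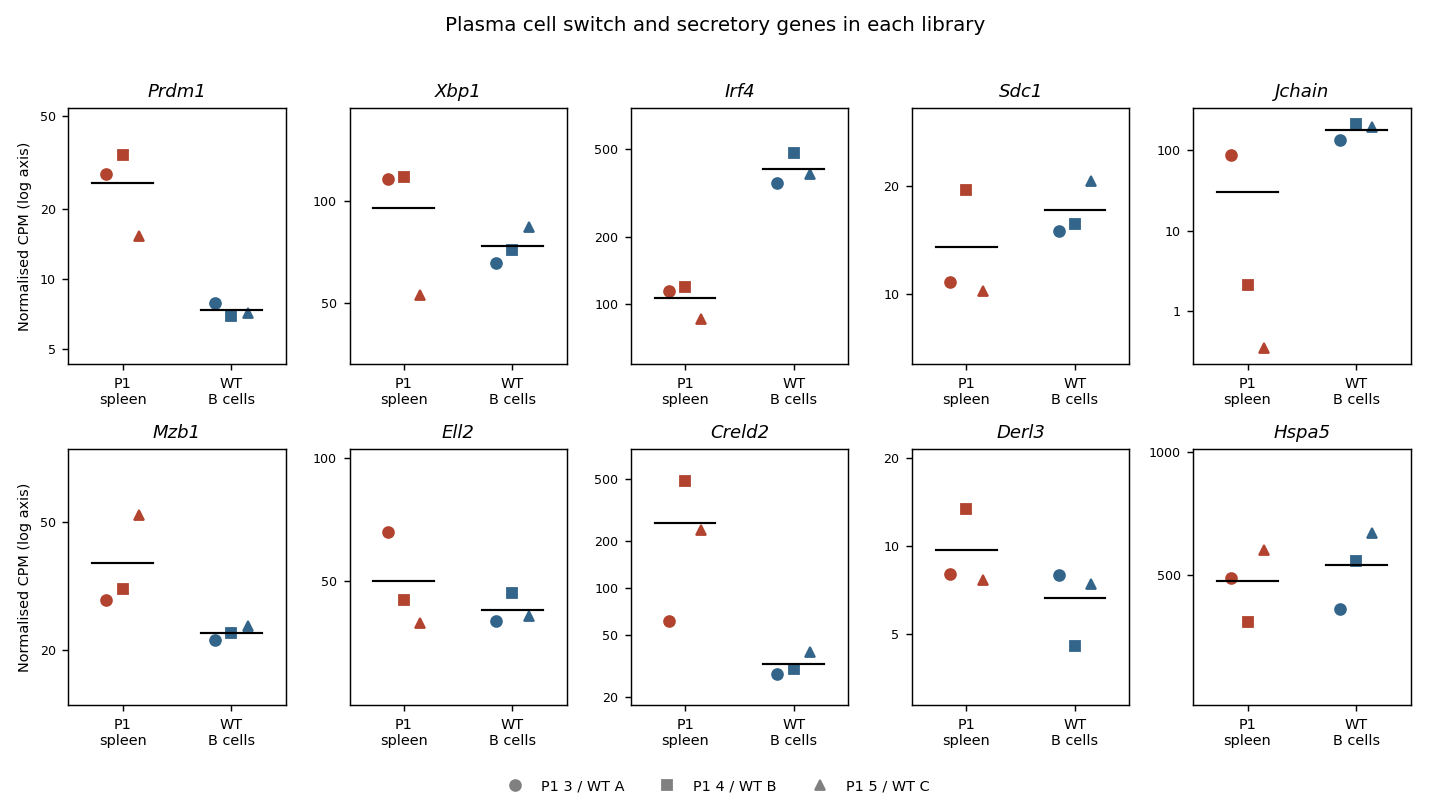
Normalised CPM (log axis) of each of the 10 genes in every library. P1 spleen is left of WT B cells in each panel, symbols mark the library and horizontal bars are group means of 3. Prdm1, Mzb1 and Creld2 lie higher in all 3 P1 libraries than in any WT library, Irf4 and Jchain lie lower, and Jchain spreads from 0.348 to 87.5 CPM within P1.

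Among the switch factors, Prdm1, which encodes the repressor Blimp-1 and lies on chromosome 10 (GRCm39, 44313173 to 44404497), had 28.4, 34.0 and 15.4 CPM in P1 replicates 3, 4 and 5, against 7.94, 6.93 and 7.18 CPM in WT A, B and C. All 3 P1 libraries were above all 3 WT libraries, and the WT libraries were within 1.14-fold of each other. Its log2 fold change was 1.81 ± 0.35 (standard error, n = 3 per group, edgeR adjusted p = 0.00642), a 3.51-fold higher level. The call held without any 1 library, with adjusted p between 0.0016 and 0.0441. T cells and NK cells also use Prdm1, and the summed T cell markers given above were 626, 253 and 272 CPM in P1 replicates 3, 4 and 5. The summed NK cell markers were 146, 24.3 and 76 CPM in the same libraries. The part of those cells in the Prdm1 level was not tested.

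Irf4, on chromosome 13 (30933209 to 30950959), encodes the factor that starts the switch at high dose and also acts in B cell activation at lower dose. It had 115, 119 and 86.1 CPM in P1 replicates 3, 4 and 5, against 352, 478 and 386 CPM in WT A, B and C. The groups did not overlap, and P1 libraries were within 1.38-fold of each other, close to the 1.36-fold of WT libraries. The log2 fold change was -1.93 ± 0.28 (edgeR adjusted p = 0.00209), and the call held without any 1 library. Prdm1 and Irf4, which plasma cells raise together, were thus called in opposite directions under TMM scaling. Under the pan-B cell scaling described below, Irf4 was at 1.14 and not called (edgeR adjusted p = 0.0655), where all genes had a median of 2.97.

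Xbp1, on chromosome 11 (5470659 to 5475893), encodes the driver of the secretory programme. It had 116, 118 and 52.8 CPM in P1 replicates 3, 4 and 5, against 65.5, 71.7 and 84.0 CPM in WT A, B and C. Replicates 3 and 4 were above every WT library and replicate 5 below every one, so the groups overlapped. The log2 fold change was 0.38 (95% interval -0.39 to 1.15, edgeR adjusted p = 0.444). The active protein comes from a transcript spliced by IRE1, and gene counts do not tell the spliced form from the unspliced one.

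Ratios within a library do not depend on how libraries are scaled. Per kilobase, the log2 ratio of Prdm1 to Irf4 was -2.20, -1.99 and -2.66 in P1 replicates 3, 4 and 5, against -5.65, -6.29 and -5.93 in WT A, B and C. The groups were far apart, with a difference of 3.67 between means of -2.28 ± 0.35 in P1 and -5.96 ± 0.32 in WT (SD, n = 3 each, two-sided exact permutation p = 0.1, the smallest that 3 against 3 can give). PAX5 and Blimp-1 repress each other's genes, and the log2 ratio of Prdm1 to Pax5 was -2.26, -1.48 and -4.12 in P1, against -6.49, -6.95 and -6.67 in WT. The difference of 4.09 between means of -2.62 ± 1.36 in P1 and -6.70 ± 0.23 in WT had the same exact permutation p = 0.1 (n = 3 each). Even in P1 the Prdm1 level per kilobase was no more than 0.252 of that of Irf4 and 0.359 of that of Pax5. Both ratios still depend on which cells a library holds. P1 spleens were not B cell selected, and T cells and NK cells also use Prdm1. The part of the cell mix in either ratio was not tested.

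The plasma cell surface and antibody assembly genes did not move together. Sdc1 encodes syndecan-1 (CD138), the surface marker used to sort plasma cells, and had 10.8, 19.4 and 10.2 CPM in P1 replicates 3, 4 and 5, against 15, 15.6 and 20.6 CPM in WT A, B and C. The groups overlapped, and its log2 fold change was -0.35 (95% interval -1.15 to 0.44, edgeR adjusted p = 0.488).

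Jchain encodes the joining chain that links IgM pentamers and IgA dimers and lies on chromosome 5 (88667668 to 88675750). It had 87.5, 2.08 and 0.348 CPM in P1 replicates 3, 4 and 5, against 135, 212 and 193 CPM in WT A, B and C. The values in replicates 4 and 5 rest on 9 and 3 counts, while replicate 3 had 1017. Every P1 library was below every WT library, but the P1 libraries differed 251-fold among themselves, a wider spread than in 99.9% of tested genes on the log2 scale (offset 0.5 CPM). The log2 fold change of -2.56 ± 1.39 was not called (edgeR adjusted p = 0.205). Without P1 replicate 3 it was -7.44 and passed (edgeR adjusted p = 0.00116), so that 1 library decides the call.

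Igha, the constant gene of IgA, set the same P1 library apart, with 358, 0.231 and 2.20 CPM in P1 replicates 3, 4 and 5, against 72.3, 28.6 and 83.1 CPM in WT A, B and C. Ighm, the constant gene of IgM, had 3100, 1840 and 3570 CPM in P1 and 5150, 6470 and 6330 CPM in WT, with no such gap between the P1 libraries. Igha was not called over all 6 libraries (log2 fold change 0.97, edgeR adjusted p = 0.697) and was lower without P1 replicate 3 (-5.44, edgeR adjusted p = 0.00406).

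**Figure D2:**
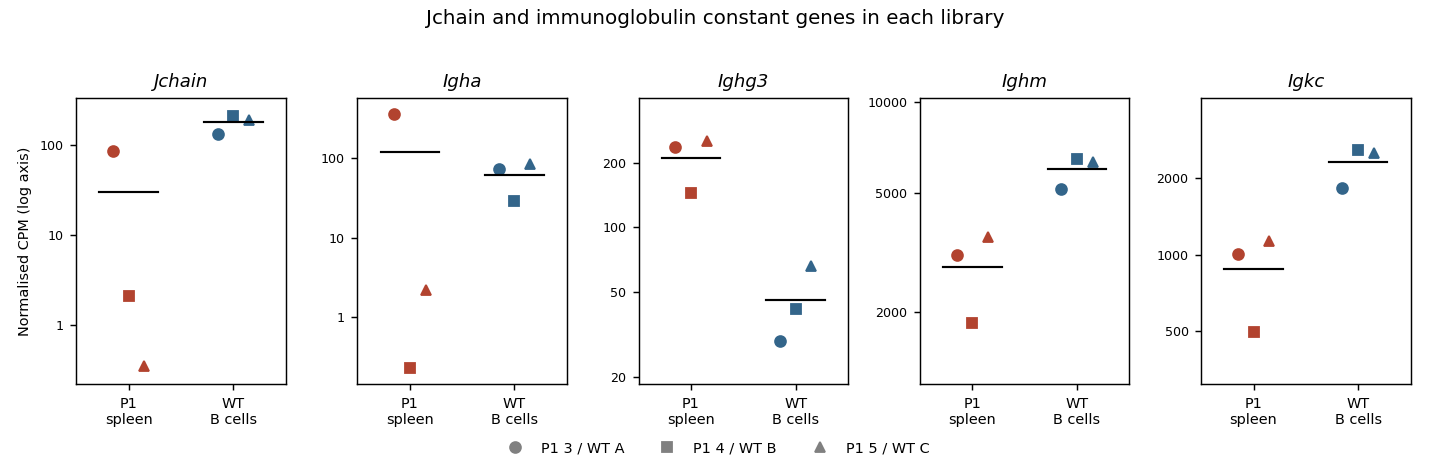
Normalised CPM (log axis) of Jchain and 4 immunoglobulin constant genes in every library, P1 spleen left of WT B cells, with bars at the mean of 3. Jchain and Igha are high in P1 replicate 3 (87.5 and 358 CPM) and at or below 2.20 CPM in replicates 4 and 5, whereas Ighg3, Ighm and Igkc show no such gap.

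Mzb1 encodes an ER protein of marginal zone B cells and plasma cells that works with the chaperone GRP94 in folding immunoglobulin. It had 28.7, 31.0 and 52.5 CPM in P1 replicates 3, 4 and 5, against 21.6, 22.7 and 23.8 CPM in WT A, B and C. All P1 libraries were above all WT libraries, yet the log2 fold change of 0.72 (95% interval 0.04 to 1.41) missed the threshold (edgeR adjusted p = 0.106). Another gene on the same strand, SPATA24, shares 57.2% of the exon length of Mzb1 and had at most 1 count in any library, so the Mzb1 counts may lack reads from the shared part, depending on the counting options.

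Ell2 encodes an elongation factor that favours the secreted form of the heavy chain transcript in plasma cells. It had 65.8, 44.7 and 39.4 CPM in P1 replicates 3, 4 and 5, against 39.7, 46.5 and 41.0 CPM in WT A, B and C. The groups overlapped, and the log2 fold change was 0.24 (95% interval -0.37 to 0.85, edgeR adjusted p = 0.548).

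Of the 3 genes with an ERSE, only Creld2 was called. Creld2 encodes an ER-resident disulfide isomerase-like protein induced by ER stress and lies on chromosome 15 (88703849 to 88710886). It had 61.5, 484 and 235 CPM in P1 replicates 3, 4 and 5, against 28.4, 30.4 and 38.8 CPM in WT A, B and C. All P1 libraries were above all WT libraries, but in TMM-scaled CPM they differed 7.88-fold among themselves, more than 96.6% of tested genes on the log2 scale. Part of this spread comes from the TMM factor of replicate 4, 0.578, against 1.13 and 1.09 in replicates 3 and 5. The log2 fold change was 3.00 ± 0.65 (edgeR adjusted p = 0.0104), an 8-fold higher level. The call was lost without WT A or WT B (adjusted p = 0.0527 and 0.0555) at log2 fold changes of 2.88 and 2.92, and it held without P1 replicate 4, the library with the highest mitochondrial share (2.20, adjusted p = 0.0223). Sox11 had the same order over the P1 libraries in TMM-scaled CPM, with 82.2, 941 and 648 CPM in replicates 3, 4 and 5. That order rests on the low TMM factor of replicate 4 (0.578). In raw counts Sox11 was highest in replicate 5 (5584, against 4066 in replicate 4). Raw Creld2 counts were 2093 in replicate 4 and 2030 in replicate 5. A link between Sox11 and Creld2 was not tested.

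Hspa5, which encodes BiP, the main ER chaperone, had 491, 382 and 574 CPM in P1 replicates 3, 4 and 5, against 411, 539 and 634 CPM in WT A, B and C. The groups overlapped throughout, and the log2 fold change was -0.13 (95% interval -0.86 to 0.60, edgeR adjusted p = 0.794). The upper end of that interval lies below the lower end for Creld2 (1.51). Derl3, an ER membrane protein that passes misfolded proteins on for degradation, had 8, 13.4 and 7.66 CPM in P1 and 7.94, 4.56 and 7.41 CPM in WT. Its log2 fold change was 0.53 (95% interval -0.38 to 1.45, edgeR adjusted p = 0.353), with overlapping groups.

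The order of levels per kilobase (RPKM on TMM-scaled totals) also differed between the groups. In P1 spleens Creld2 had the highest mean level, 191 RPKM (45.0 to 355), above Hspa5 with 114 RPKM (90.2 to 136), and these ranges overlapped. Mzb1 (30.8 RPKM, 23.6 to 43.2) lay below the range of Hspa5. Xbp1 (29.5), Irf4 (21.7) and Jchain (11.9, 0.138 to 34.7) followed, and from Mzb1 on each gene overlapped the next. The place of Jchain rests on replicate 3, with 1017 counts against 9 and 3 in replicates 4 and 5. Ell2 (5.08 RPKM), Derl3 (4.86), Prdm1 (4.65) and Sdc1 (3.54) came last by mean and could not be ordered beyond their spread. The lowest Jchain value, 0.138 RPKM, lay below the lowest of Sdc1 (2.68). In WT B cells Hspa5 was first with 125 RPKM (97.3 to 150), then Irf4 with 82.7 (71.8 to 97.5) and Jchain with 71.5 (53.6 to 84.3), each overlapping the next. Creld2 (23.8 RPKM), Xbp1 (22.7) and Mzb1 (18.7) formed a middle group in which only Mzb1 lay below the range of its neighbour. Sdc1 (4.49 RPKM) overlapped Ell2 (4.32), while Derl3 (3.33) lay below Ell2 and Prdm1 was last, with 1.32 RPKM (1.24 to 1.42).

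Scaling all libraries to equal levels of the 15 pan-B cell markers asks about change per B cell marker RNA. With it all genes had a median of 2.97, and 91.1% were called, 90.5% higher and 0.64% lower, so values are also given relative to that median. Subtracting the median takes out the common shift of this scaling. Values relative to it, here and below, therefore lie near the TMM values by construction and are no separate support for them. Change per B cell marker RNA is the value before subtraction. Under it 8 of the 10 genes were called higher and 0 lower, a share near that background. Relative to the median of all genes, Prdm1 was at 1.98 and Creld2 at 3.27. Irf4 turned to 1.14 and was no longer called (edgeR adjusted p = 0.0655), which is -1.84 relative to the median. Jchain turned to 0.32 (adjusted p = 0.829), or -2.65 relative to the median, while Sdc1 and Hspa5 turned to 2.78 and 2.77 (adjusted p = 0.00298 and 0.0012), close to the median.

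**Figure D3:**
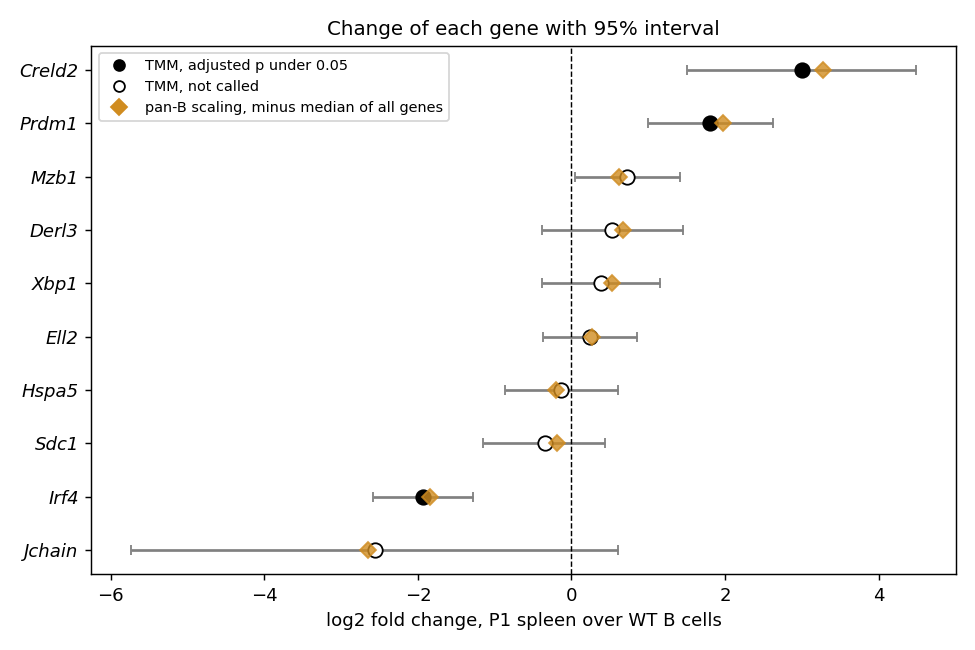
log2 fold change of P1 spleen over WT B cells for the 10 genes, with TMM scaling (circles with 95% intervals, filled where the adjusted p is under 0.05) and with pan-B cell scaling after subtracting the median of all genes (diamonds). Creld2, Prdm1 and Irf4 are the filled genes, and the diamonds lie within the intervals of all 10. Subtracting the median takes out the common shift of pan-B cell scaling, so circles and diamonds lie close by construction.

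The factors that hold B cell identity against the switch were mostly lower in P1 spleen. Of 10 such genes, 1 was higher and 6 lower, beside 16.9% higher and 11% lower over all tested genes, with a median of -2.03 against 0.02 for all genes. The 15 pan-B cell markers had a lower median, -2.75, with 0 higher and 14 lower, so lower levels were not particular to these factors. Pax5 fell to 216, 151 and 427 CPM in P1 replicates 3, 4 and 5, against 1140, 1370 and 1170 CPM in WT A, B and C (log2 fold change -2.21 ± 0.45, edgeR adjusted p = 0.00749). Bach2, a repressor of Prdm1, fell to 53.9, 18.3 and 11.8 CPM in P1, against 346, 373 and 407 CPM in WT (-3.74 ± 0.57, edgeR adjusted p = 0.00239). Ets1, Bcl6, Ciita and Spib fell too, by 2.69, 2.24, 2.17 and 1.88 on the log2 scale (edgeR adjusted p = 0.00184, 0.0171, 0.0087 and 0.0333). The calls of Bcl6 and Spib were each lost without 1 of at least 3 libraries. Mitf, which restrains Irf4 in resting B cells, was the gene of this list that rose, at a low level (7.91, 6.94 and 7.08 CPM in P1 and 0.909, 2.50 and 1.89 CPM in WT, edgeR adjusted p = 0.0139). Its call did not hold without WT A or WT C (adjusted p = 0.0642 and 0.0603). Under pan-B cell scaling Pax5, Bcl6, Ets1, Spib and Ciita were at 0.21 to 0.75 and Bach2 at -0.75, and none of the 6 was called. That scaling shifts all genes upwards, and relative to the median of all genes Pax5 was at -2.43, Bach2 at -3.73 and the other 4 between -2.77 and -2.22.

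Further plasma cell genes gave no common direction, with 2 higher and 4 lower of 15 tested (16.9% and 11% of all tested genes) and a median of -0.46. Tnfrsf17, which encodes the plasma cell receptor BCMA, had 9, 0 and 2 counts in P1 and 6, 10 and 8 counts in WT and was not tested. Cd93 and Cd28, genes of long-lived plasma cells that endothelial, myeloid and T cells also express, rose by 2.32 and 3.27 on the log2 scale (edgeR adjusted p = 0.00321 and 0.00479). Cxcr4, Lax1, Pou2af1 and Eaf2 fell by 2.73, 2.17, 1.97 and 1.6 (edgeR adjusted p = 0.00457, 0.000909, 0.00285 and 0.0211), the last a call lost without any 1 WT library. Under pan-B cell scaling these 4 were not called, at 0.12, 0.78, 0.90 and 1.35, which is -2.85, -2.19, -2.07 and -1.62 relative to the median of all genes.

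Among 10 stress sensors and genes of the ATF4 arm, 3 were higher and 1 lower, with a median of -0.27, beside 27.9% of all tested genes called in either direction. Ern1, which encodes the XBP1-splicing sensor IRE1, rose to 69.8, 102 and 34.8 CPM in P1 replicates 3, 4 and 5, against 18.1, 15.2 and 19.2 CPM in WT A, B and C (log2 fold change 1.97 ± 0.39, edgeR adjusted p = 0.00671). Asns, the asparagine synthetase that ATF4 induces, rose to 22.4, 23.4 and 59.4 CPM in P1, against 2.00, 1.80 and 2.65 CPM in WT (4.03 ± 0.49, edgeR adjusted p = 0.000986). Chac1, another ATF4 target, rose by 2.74 (edgeR adjusted p = 0.0259), which did not pass without P1 replicate 4, WT A or WT B. Eif2ak3, which encodes the sensor PERK, fell by 1.02 (edgeR adjusted p = 0.0374), a call that fell away without any of 5 single libraries and that pan-B cell scaling set at 1.85 (adjusted p = 0.00221), or -1.12 relative to the median of all genes. Atf4 itself was at -0.82 (edgeR adjusted p = 0.0743).

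The folding enzymes other than BiP gave 0 higher and 2 lower of 15, with a median of 0.26, beside 16.9% higher and 11% lower over all tested genes. Without P1 replicate 4, 3 of them were called higher, beside 2818 of 16609 tested genes. Dnajb9, a BiP co-chaperone, and Ero1b, an oxidase that holds an ERSE, fell by 2.73 and 2.67 (edgeR adjusted p = 0.00212 and 0.00207), and under pan-B cell scaling both were at 0.26 and not called, or -2.72 and -2.71 relative to the median of all genes. Calr, the gene of this list with the highest level per kilobase in both groups, was at 0.31 (edgeR adjusted p = 0.534). Of 12 genes of ER-associated degradation, 3 were higher and 0 lower, with a median of 0.06, a share near the 27.9% called over all tested genes. Sel1l, the adaptor of the HRD1 ligase, rose to 154, 275 and 312 CPM in P1, against 79.0, 77.2 and 73.6 CPM in WT (1.69 ± 0.31, edgeR adjusted p = 0.00531). Edem1 and Vcp rose by 1.40 and 0.90 (edgeR adjusted p = 0.0267 and 0.0468), both calls lost without any 1 WT library, while Syvn1, which encodes HRD1 itself, was at -0.81 (edgeR adjusted p = 0.0964). Of 18 translocon and ER export genes, only Lman1, a cargo receptor, was called, higher by 1.05 (edgeR adjusted p = 0.0195, lost without any 1 WT library). Their median was 0.11, and 27.9% of all tested genes were called. Scaled by library totals, 1 of the 12 and 0 of the 18 were called higher, beside 1928 of 15462 tested genes. Without P1 replicate 5, 5 of the 18 were higher, beside 3206 of 16553 tested genes.

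Over all these lists, 10 genes hold an ERSE in the promoter window. Of these Creld2 rose, Ero1b fell and the other 8, Hspa5, Derl3, Calr, Hsp90b1, Canx, Pdia6, Dnajc3 and Syvn1, lay between -0.81 and 0.63 and were not called. Over all tested genes 27.9% were called in either direction, so these calls are no result about genes with an ERSE.

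**Figure D4:**
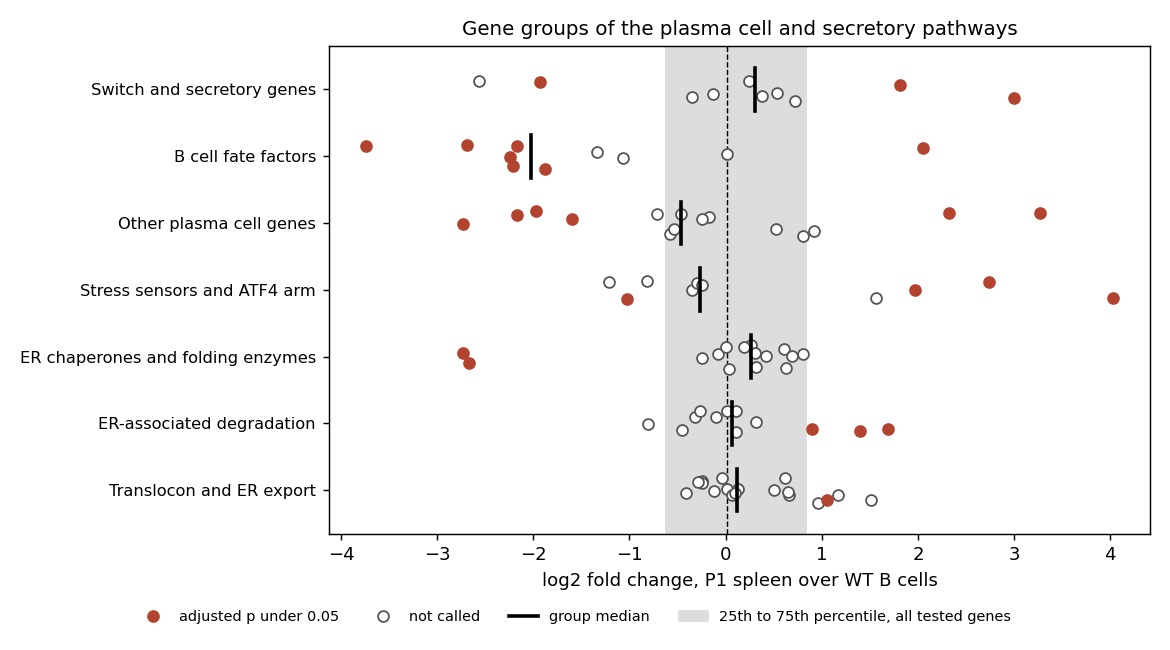
log2 fold change of P1 spleen over WT B cells for single genes in 7 groups (points, filled where the adjusted p is under 0.05, with a bar at each group's median), beside the 25th to 75th percentile of all tested genes (grey, -0.62 to 0.84). Of the groups shown, B cell fate factors have the lowest median, -2.03, and the medians of the other 6 groups lie between -0.46 and 0.31, inside the grey band. The pan-B cell markers, with a median of -2.75, are not shown.

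By profile over the 6 libraries, the genes most like Prdm1 were Flot1, Klhl12 and Ptpre, each at a root mean square distance of 0.11 between log2 CPM centred on the gene mean. Those most like Irf4 were Arap2, Traf4 and Ralgds (0.09, 0.12 and 0.15), and those most like Xbp1 were Apoo, Adgra2 and Rit1 (0.09, 0.09 and 0.11).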

How the data were processed

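Libraries were made from 50 ng of RNA with a strand-specific NEBNext kit, per the labels' protocols. The tools named are Trim Galore, HISAT2 and featureCounts, with GRCm39 as genome build, per the submitters' processing notes. Their versions, their settings and the strand used in counting are not given in the sources used here. The authors deposited raw counts per gene, which were used as deposited. Gene lengths and GRCm39 coordinates are those of the table. Symbols were assigned by gene ID to 51948 of 56884 genes.

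Genes were filtered with filterByExpr, scaled by TMM and tested with edgeR 4.0.16 (R 4.3.3), by the robust quasi-likelihood F-test with no covariate, as no batch is labelled. Adjusted p-values come from this fit across 15462 genes; the 2 within-library ratios were tested by exact permutation, with no adjustment. The standard error is the absolute log2 fold change divided by the square root of F, and 95% intervals use the fit's degrees of freedom. CPM and RPKM use TMM-adjusted totals; ± is SD for levels and ratios (offset 0.5 counts). 1 count equals 0.086 to 0.231 CPM in P1 and 0.0606 to 0.0756 CPM in WT libraries, which limits precision at low levels. Libraries of a group differed beyond sampling noise (chi-square per degree of freedom of 124 to 280 in P1 and 19.5 to 20.9 in WT), so none was merged as a repeat. The sample titles give every sample its own mouse number. The column names of WT A and WT B share a tag, D4, that the labels do not explain, and no WT column could be tied to a numbered mouse. The test was checked on simulated data.

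The genes and lists were chosen with earlier results of these data known. Of 174 list entries, all matched a gene, 1 by a synonym; where an entry matched several IDs, the one with most counts was used. All 10 genes are described; of other lists, genes past the threshold or with the highest level could be named. Promoters are RefSeq, GRCm38.p6, with no coordinates carried between builds. Alternatives were DESeq2 (1.42.0), its size factors, library totals, pan-B cell scaling, no filter, no mitochondrial genes, and leaving out each library.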

Additional observations from a re-analysis of the deposited data

How the results depend on the processing

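No paired analysis was made, because the groups are different mice and the labels give no pairing between them. Under DESeq2 size factors, library totals, no filter, no mitochondrial genes and DESeq2 itself, 2 of the 10 genes were higher and 1 lower, as in the values given. Under pan-B cell scaling 8 were higher and 0 lower, and over all genes 13989 were higher and 99 lower, against 2618 and 1702 with TMM. Leaving out 1 library gave 1 to 2 of the 10 genes higher and 1 to 2 lower, and over all genes 1644 to 3206 higher and 815 to 2313 lower. Creld2 lost its call without WT A or WT B, and Jchain was the added lower gene without P1 replicate 3. Leaving out WT A gave 1715 higher and 827 lower calls over all genes. The same counts were 1644 and 815 on leaving out WT B. They were 1991 and 979 on leaving out WT C. Single values that turned sign were, under pan-B cell scaling, Irf4 (1.14), Sdc1 (2.78), Jchain (0.32) and Hspa5 (2.77), by the construction of that scaling, and Ell2 without P1 replicate 3 (-0.02, range -0.02 to 0.37 over libraries left out) and Hspa5 without P1 replicate 4 (0.03, range -0.31 to 0.03), where the cause was not tested. Of 120 single-gene values under alternatives, 107 kept direction and side of the threshold. The ratios of Prdm1 to Pax5 (3.52 to 4.84) and to Irf4 (3.51 to 3.86) kept direction under every alternative run. As the groups did not overlap in either ratio, leaving out 1 library could not turn it, and these ranges show only how far the size varied. Low counts limit precision most for Jchain, at 9 and 3 counts in P1 replicates 4 and 5, and its call turned on replicate 3, with 1017.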

Other observations

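Immunoglobulin constant genes, the cargo of the secretory machinery, were 1 higher and 7 lower of 11 tested in P1 spleen, beside 16.9% higher and 11% lower over all tested genes. The gene that rose was Ighg3, the constant gene of IgG3, with 237, 144 and 251 CPM in P1 replicates 3, 4 and 5, against 29.5, 41.5 and 65.6 CPM in WT A, B and C (log2 fold change 2.21 ± 0.38, edgeR adjusted p = 0.00364). It was higher in all 3 P1 libraries and at 5.07 under pan-B cell scaling, above the median of 2.97 for all genes. Ighd, Ighg1, Ighg2b, Igkc, Iglc1, Iglc2 and Iglc3 fell, of which Iglc3 was at 8.77, 6.94 and 2.44 CPM in P1 and at 73.4, 114 and 65.1 CPM in WT (-3.80 ± 0.49, edgeR adjusted p = 0.00128). The calls of Ighg2b and Igkc were lost without P1 replicate 3 or any 1 WT library, and reads of related constant genes can be exchanged. Under pan-B cell scaling Igkc was at 1.42 (called higher), Ighg2b, Iglc1 and Iglc2 were at 0.35 to 0.57 and Iglc3 and Ighg1 at -0.70 and -0.79 (not called), and Ighd was at -2.70 (called lower). Relative to the median of all genes these 7 lay between -5.67 and -1.55.

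The gene with the profile most like Creld2 over the 6 libraries was Timeless, a gene of the replication fork, at a distance of 0.22, chosen after its values were seen. It had 64.1, 334 and 177 CPM in P1 replicates 3, 4 and 5, against 27.6, 26.2 and 28.4 CPM in WT A, B and C (log2 fold change 2.81, edgeR adjusted p = 0.00598). The nearest profile to Jchain, that of Ifi208, was at a distance of 1.18, the widest nearest distance of the 10 genes.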
